A study of Mus musculus with 4 samples.

Results

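Macrophages change their transcripts with the signals around them, and 9 genes that are widely read as markers of those states were followed here in cells sorted from mouse tumors grown from B16-F10, a melanoma line. The genes were taken by symbol from the count tables, and all 9 were found among 55367 gene rows. They were Nos2, Mrc1, Cd163, Folr2, Trem2, Apoe, Gpnmb, Spp1 and Chil3. The series holds 4 libraries of polyadenylated RNA, 2 titled WT and 2 titled KO, each numbered 1 and 2. The cells were sorted, per the labels, for CD45.2, which marks cells of blood origin, and for CD8, which marks cytotoxic T cells. The series describes WT mice and mice with floxed Satb1 crossed to ThPOK-cre, which acts in the CD4 T cell lineage, or to E8I-cre, which acts in the CD8 lineage. The product of Satb1 folds chromatin in developing T cells. The labels did not state which Cre the libraries labeled KO carried, nor the age, the sex or the number of mice behind a library, so p-values measure only the spread between these libraries, which may be technical.

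As background, interleukin-4 and interferon gamma push macrophages in opposite directions. The first induces endocytic receptors, and the second, with bacterial products, induces nitric oxide synthase. In tumors these programs are mixed, and macrophages that handle lipid and debris (marked by Trem2, Apoe, Gpnmb and Spp1) are set apart from macrophages that resemble long-lived resident cells (marked by Folr2 and Cd163). The names of these states are used below only for the gene lists.

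Before the markers are described, the libraries need a short account. Counts on genes ranged from 4017875 to 5382915, and 3 counts were worth between 0.557 and 0.747 CPM (counts scaled to a common sum of gene counts per library). For Satb1 the WT-labeled pair had 7 and 5 counts and the KO-labeled pair 131 and 55. Whether Satb1 was deleted cannot be read from these counts, since T cell shares also differed between the labels and the Cre is not stated. Every direction below is that of the libraries as labeled. Macrophage identity genes, a list of 13, made up 2.62% and 3.63% of gene counts in WT 1 and WT 2 and 2.1% and 2.51% in KO 1 and KO 2, while 10 T cell identity genes made up at most 0.252% in any library. The 13 macrophage genes thus held more counts than the 10 T cell genes in each library, which goes against the labeled sort. Without C1qa, C1qb, C1qc and Lyz2 the macrophage list held 0.597%, 0.510%, 0.212% and 0.464% in WT 1, WT 2, KO 1 and KO 2, so that in KO 1 the T cell list was then the larger. The summed share of T cell identity genes was 0.00757% and 0.0121% under the WT label against 0.252% and 0.132% under the KO label. In the same order, melanoma genes (8) held 0.0226% and 0.0268% against 0.239% and 0.132%, fibroblast or endothelium genes (6) 0.00207% and 0.00192% against 0.147% and 0.0203%, and dendritic cell genes (8) 0.00550% and 0.00929% against 0.0520% and 0.0356%. Dcn was at 0 counts in both libraries labeled WT and Col1a1 in WT 2, whereas no gene of the melanoma or T cell identity list was at 0 in any library. Xist had 435 and 216 counts against 0 and 3, and 4 Y-linked genes together had 0 and 0 against 416 and 255, so that sex and label cannot be told apart. The part of these differences in the results below was not tested.

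Of 11837 genes tested for KO against WT, 68 (0.574%) were past an adjusted p of 0.05, 65 with a higher (0.549%) and 3 with a lower (0.0253%) level under the KO label (edgeR quasi-likelihood test, Benjamini-Hochberg adjustment over all genes tested). The split was 350 higher and 66 lower in DESeq2, and 725 higher and 524 lower without KO 2. All 9 polarization markers were tested, and 0 were past that threshold. At an unadjusted p under 0.05 there was 1 marker, Trem2, beside 13.7% of all genes tested. DESeq2 called 1 marker, again Trem2, beside 3.51% of all genes. The fitted log2 fold changes of the markers were above 0 for 5 and below 0 for 4, and 47.4% of all genes tested were below 0. The median was 0.11 for the markers beside 0.05 over all genes tested. The CPM of the groups did not overlap for 3 markers, Mrc1, Trem2 and Cd163, beside 48.4% of all genes tested. After TMM scaling, which offsets differences in library composition, the groups did not overlap for 2 markers, Trem2 and Apoe, beside 47.9%, so that Trem2 alone was separated on both scales. The mean log2 TMM factor was 0.34 higher under the KO label, which lowers TMM-scaled KO to WT differences by that amount relative to plain CPM. CPM values below are unscaled and fold changes are from the TMM-scaled fit.

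**Figure D1:**
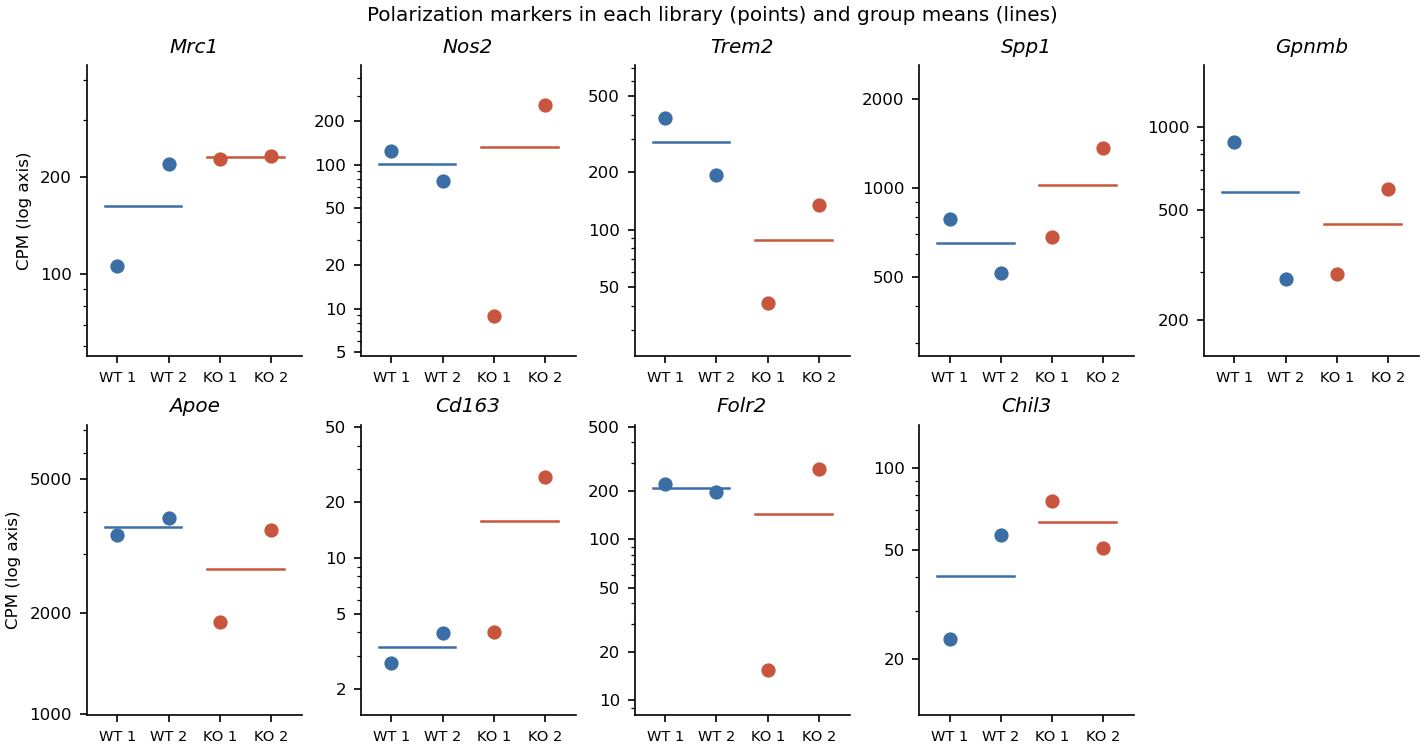
CPM of each of the 9 polarization markers (log axis, a separate scale for each panel) in WT 1, WT 2, KO 1 and KO 2, with lines at the group means. Nos2 and Folr2 are far lower in KO 1 than in KO 2, and Trem2 is lower in both libraries labeled KO than in both labeled WT.

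The first marker codes for an enzyme. Nos2, inducible nitric oxide synthase, which turns arginine into nitric oxide and citrulline, spans chromosome 11 bases 78920787 to 78960254 (plus strand). Nos2 had 125 and 77.4 CPM in WT 1 and WT 2, against 8.93 and 258 CPM in KO 1 and KO 2. The libraries labeled KO were the lowest and the highest of the 4 and lay 28.9-fold apart, on either side of both libraries labeled WT. Nos2 had a fitted log2 difference of 0.11 with an SE of 1.07 and a 95% interval from -2.30 to 2.51 (edgeR adjusted p = 0.981). Without KO 2 it became -3.96 (edgeR adjusted p = 0.00212), in a fit that called 9.72% of all genes tested, without KO 1 it became 1.06 (edgeR adjusted p = 0.223), and it was 0.60 without WT 1 and -0.28 without WT 2.

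Other genes that handle arginine, the substrate of Nos2, were read from a list of 10 genes, of which 10 were tested and 0 passed the threshold. Their median log2 fold change was 0.38, and 7 of the 10 values were above 0. The largest were those of Odc1, the ornithine decarboxylase that begins polyamine synthesis, at 1.23 (edgeR adjusted p = 0.263), and Sms, spermine synthase, at 1.21 (edgeR adjusted p = 0.288). Odc1 CPM was 96.8 and 122 under the WT label and 364 and 284 under the KO label, with no overlap.

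Nos2 is read together with the cytokines and surface proteins of classical activation, a list of 14 genes here. Of these, 13 were tested and 0 passed the threshold. Their log2 fold changes ran from -1.28 to 2.99 around a median of 0.37. The largest value was that of Il12b, a subunit of interleukin-12 and interleukin-23, with 0 and 6 counts under the WT label and 36 and 34 under the KO label (edgeR adjusted p = 0.300). Il6, a cytokine gene, had 8 and 16 counts against 101 and 91 (log2 difference 2.44, SE 0.64, edgeR adjusted p = 0.150). Neither gene had the gap between KO 1 and KO 2 that Nos2 had.

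The next markers are endocytic receptors. Mrc1, the mannose receptor, which takes up glycoproteins, spans chromosome 2 bases 14229392 to 14332057 (plus strand). Mrc1 had 107 and 219.9 CPM in WT 1 and WT 2 and 228 and 233 CPM in KO 1 and KO 2. WT 1 was low and the other 3 libraries were nearly level. Fitted over both groups, the log2 difference of Mrc1 was 0.19 with an SE of 0.46 and a 95% interval from -0.85 to 1.24 (edgeR adjusted p = 0.884), the smallest SE among the markers. It became -0.22 without WT 1, 0.63 without WT 2 and 0.07 without KO 2.

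Cd163, a scavenger receptor for haptoglobin bound to hemoglobin, spans chromosome 6 bases 124304656 to 124330527 (plus strand). Cd163 had 11, 17 and 18 counts in WT 1, WT 2 and KO 1, and 147 counts in KO 2. In CPM these were 2.74, 3.99, 4.02 and 27.3, so that KO 2 stood 6.80-fold above the next library and the other 3 were close to each other. The fit put Cd163 at a log2 value of 1.94 with an SE of 0.92 and a 95% interval from -0.12 to 4.0 (edgeR adjusted p = 0.388). It became -0.17 without KO 2 and 2.75 without KO 1.

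Folr2, folate receptor beta, a surface protein that binds folate, spans chromosome 7 bases 101839988 to 101857194 (minus strand). Folr2 had 219 and 196 CPM in WT 1 and WT 2, and 15.4 and 272 CPM in KO 1 and KO 2. KO 1 was 12.7-fold below the next library, and the other 3 lay close together. Fitted as log2, the Folr2 difference was -0.81 with an SE of 0.96 and a 95% interval from -2.98 to 1.36 (edgeR adjusted p = 0.747). Without KO 1 it became 0.11, and without KO 2 it became -4.20 (edgeR adjusted p = 0.000572, beside 9.72% of all genes called in that fit). Of the exonic bases of Folr2, 63.1% are shared with Gm10602 on the other strand, whose counts, 906 and 1039 for WT and 109 and 1479 for KO, stood beside 881, 834, 69 and 1464 for Folr2 in the same order. Whether strand was used in counting is not given, so reads of these genes cannot be told apart and the values of Folr2 are uncertain.

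Genes that accompany Folr2 and Cd163 in resident-type macrophages were read from a list of 12, of which 11 were tested and 0 passed. The median log2 fold change was -0.72, with 2 values above 0 and 9 below. The largest were those of Ccl8, a chemokine, at -1.29 (edgeR adjusted p = 0.449), and F13a1, a subunit of coagulation factor XIII, at 1.22 (edgeR adjusted p = 0.417). CPM was lowest in KO 1 for 8 of the 11 genes, beside 21.6% of all genes tested. The median log2 difference of KO 2 over KO 1 was 2.36 on this list, beside -0.17 over all genes tested. In the median of these genes, as in Folr2 and Cd163, KO 2 was thus above KO 1.

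Mrc1 and Chil3 are also read as genes that interleukin-4 induces. On a list of 12 other genes of that response or its signaling chain, 12 were tested and 0 passed the threshold, the median log2 fold change was 0.16, and 7 values were above 0. Irf4, a transcription factor, had a log2 fold change of 1.82 (edgeR adjusted p = 0.276), at 5.23 and 4.46 CPM under the WT label and 32.8 and 11.7 under the KO label. Irf4 is also active in T and dendritic cells, whose marker lists held larger shares in the libraries labeled KO. The part of those cells in the Irf4 values was not tested. Tgm2, transglutaminase 2, had a log2 fold change of -1.37 (edgeR adjusted p = 0.300), with 753 and 709 CPM against 250.2 and 457. The median KO 2 over KO 1 difference of this list was 0.01 in log2.

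Trem2, a receptor for lipids and lipoproteins on macrophages and microglia, spans chromosome 17 bases 48346401 to 48354147 (plus strand). Trem2 had 382 and 193 CPM in WT 1 and WT 2 and 41.5 and 134 CPM in KO 1 and KO 2. Both libraries labeled KO were below both labeled WT. Trem2 had the largest fitted difference in log2, -2.04 with an SE of 0.67 and a 95% interval from -3.55 to -0.53, with an unadjusted p of 0.0135 and an edgeR adjusted p of 0.240. The edgeR adjusted p was 0.0111 when every gene with a count was tested, beside 2.74% of genes called, and the DESeq2 adjusted p was 0.0371. Leaving out 1 library moved the value to -1.36 without WT 1, -2.54 without WT 2, -1.40 without KO 1 and -3.27 without KO 2, below 0 each time and past the threshold without KO 2 (edgeR adjusted p = 0.0063, beside 9.72% of all genes called). Over the alternatives that kept every library, the adjusted p of Trem2 (edgeR or DESeq2) ran from 0.00347 to 0.243. The lowest came from a crossed pairing of the libraries, chosen after seeing the data, in a fit that called 5.47% of all genes. In these bulk libraries fewer cells of a type and less RNA per cell cannot be told apart.

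Apoe, apolipoprotein E, which carries lipids out of macrophages, spans chromosome 7 bases 19696109 to 19699188 (minus strand) and was the most abundant marker. Apoe had 3404 and 3834 CPM in WT 1 and WT 2 and 1887 and 3529 CPM in KO 1 and KO 2. KO 1 was the low library, and KO 2 lay between the libraries labeled WT, so the groups overlapped on this scale. In the fit the log2 difference of Apoe was -0.73 with an SE of 0.58 and a 95% interval from -2.03 to 0.58 (edgeR adjusted p = 0.602). It became -0.31 without KO 1 and -1.38 without KO 2 (edgeR adjusted p = 0.0539).

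Gpnmb, a transmembrane glycoprotein of lysosome-rich macrophages that melanocytes also make, spans chromosome 6 bases 49036546 to 49070929 (plus strand). Gpnmb had 884 and 282 CPM in WT 1 and WT 2 and 295 and 597 CPM in KO 1 and KO 2. The libraries labeled KO lay inside the range of those labeled WT. The fitted Gpnmb difference in log2 was -0.75 with an SE of 0.67 and a 95% interval from -2.26 to 0.76 (edgeR adjusted p = 0.654), and became 0.41 without WT 1, -1.43 without WT 2, -0.29 without KO 1 and -1.48 without KO 2. The melanoma list had the other sign, with 8 of 8 log2 fold changes above 0, 1 of them (Tyrp1) past the threshold. The melanoma share was 0.0226% to 0.0268% under the WT label and 0.132% to 0.239% under the KO label, and its highest library, KO 1, was among the lower libraries for Gpnmb. Its part in the Gpnmb values was not tested.

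Spp1, osteopontin, a secreted matrix protein, spans chromosome 5 bases 104435118 to 104441050 (plus strand). Spp1 had 789.7 and 517 CPM in WT 1 and WT 2 and 682 and 1365 CPM in KO 1 and KO 2. KO 2 was the high library, and KO 1 lay between the libraries labeled WT. For Spp1 the fit gave a log2 value of 0.31 with an SE of 0.57 and a 95% interval from -0.96 to 1.59 (edgeR adjusted p = 0.841). It became -0.07 without WT 2, -0.40 without KO 2, 0.73 without WT 1 and 0.77 without KO 1. Of its exonic bases 18.8% are shared with Gm42793 on the same strand, which had 0 to 5 counts, and how reads in that stretch were assigned is not given.

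The lipid-associated macrophage list of 16 other genes had 15 tested and 0 past the threshold. The median log2 fold change was -0.78, with 4 values above 0 and 11 below. The largest were those of Fabp4 and Fabp5, both fatty acid binding proteins, at -2.87 (edgeR adjusted p = 0.157) and -1.78 (edgeR adjusted p = 0.292). Fabp4 had 28.4, 8.45, 3.79 and 2.79 CPM and Fabp5 had 1302, 353, 318 and 313 CPM in WT 1, WT 2, KO 1 and KO 2. For both genes WT 1 was far above the other 3 libraries, whereas for Trem2 KO 1 was far below the other 3.

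Chil3, also called Ym1, a secreted chitinase-like protein of alternatively activated macrophages and of monocytes, spans chromosome 3 bases 106147554 to 106167564 (minus strand). Chil3 had 23.6 and 57.0 CPM in WT 1 and WT 2 and 76.1 and 50.9 CPM in KO 1 and KO 2. WT 1 was the low library, the groups overlapped, and no other marker was higher in KO 1 than in KO 2. Chil3 was fitted at a log2 value of 0.34 with an SE of 0.49 and a 95% interval from -0.77 to 1.46 (edgeR adjusted p = 0.797), and became -0.16 without WT 1, 0.92 without WT 2 and 0.10 without KO 1. Chil4, its close relative, had 0 counts in all 4 libraries, as did Chia1, and Chit1 had 4 counts in KO 1 alone. The monocyte list of 6 genes, which includes Chil3, had 6 tested and 0 past the threshold, with a median log2 fold change of 0.76, 4 values above 0 and 2 below. Its largest values were those of Vcan, a proteoglycan, at 1.99 (edgeR adjusted p = 0.411), and Ccr2, the receptor that draws monocytes into tissue, at 1.24 (edgeR adjusted p = 0.389). Ccr2 was highest in KO 1, with 579 CPM against 76.2, 196 and 226 in WT 1, WT 2 and KO 2. Ly6c2, a surface protein of inflammatory monocytes, was at -1.20 (edgeR adjusted p = 0.362), with 972 and 531 CPM against 486 and 360.4, so the list had no common sign.

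**Figure D2:**
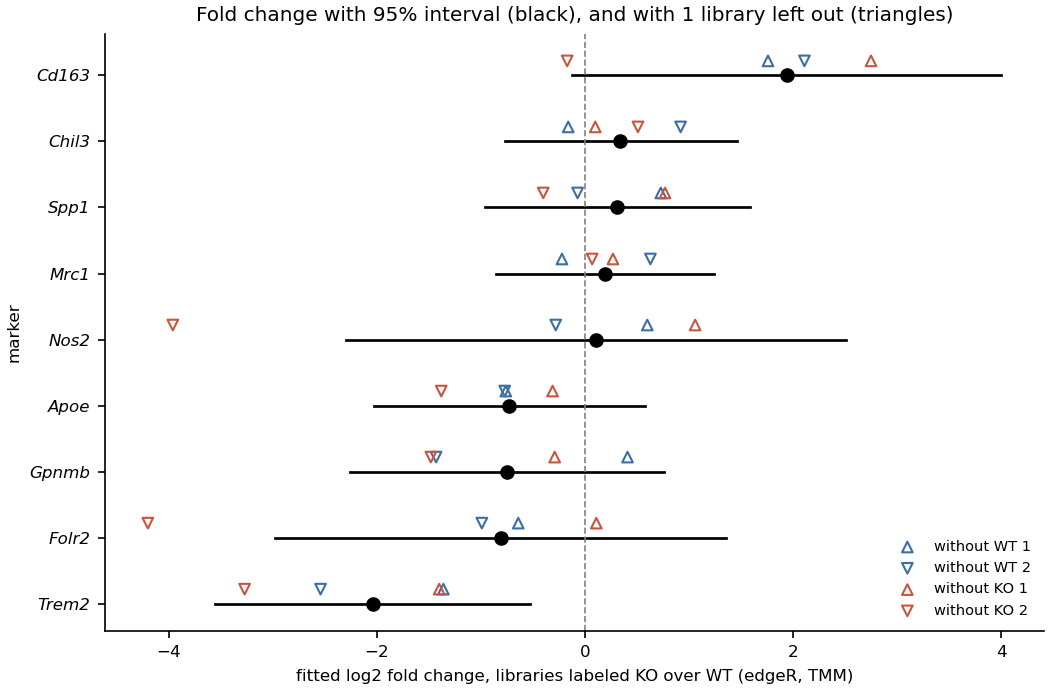
Fitted log2 fold change of KO over WT for each polarization marker (black point) with its 95% interval (black line), and the same value with 1 library left out (triangles, blue for a WT library and red for a KO library). The interval excludes 0 for Trem2, and without KO 2 the values of Folr2, Nos2 and Trem2 reach -3.27 or lower.

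**Figure D3:**
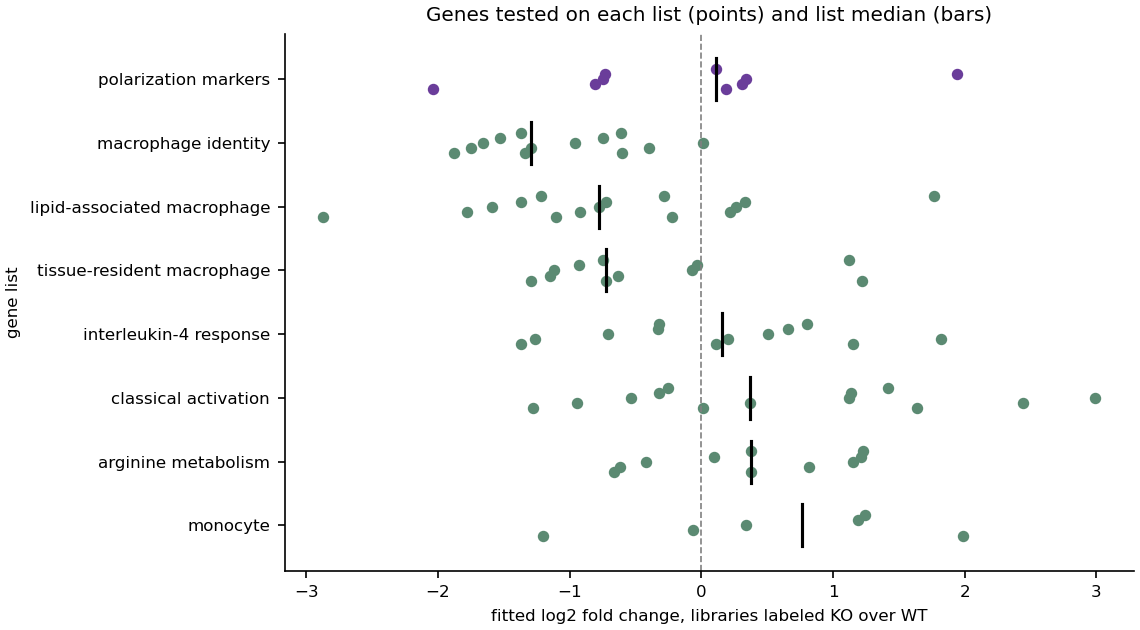
Fitted log2 fold change of KO over WT for the genes tested on the polarization marker list and 7 related lists (points), with the median of each list (bars). Medians run from -1.29 for macrophage identity to 0.76 for monocyte genes, and the 9 polarization markers spread from -2.04 to 1.94.

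Upstream sequence was available for 8 of the 9 markers in the RefSeq promoter table (build GRCm38.p6), in 12 windows because some genes have several start sites; Nos2 had no entry. The 250 bases before each start site were searched on both strands for 4 motifs. These were a STAT6-type site (TTC and GAA with 4 bases between them) and the core of the macrophage factor PU.1 (GAGGAA). The others were the letters TTGCNNCAA, which resemble but do not match the usual C/EBP site, and an E-box (CACGTG). The PU.1 core was found in 5 of the 12 windows, from Mrc1, Spp1, Apoe and Trem2, beside 23.3% of all 32851 windows. The other 3 motifs were found in none of the 12 windows, beside 5.85%, 1.74% and 6.02% of all windows in the order given above, and no matches overlapped each other. Shown here are Trem2, the marker with the smallest p, Mrc1, with 3 matches and the smallest gap between KO 1 and KO 2, and Folr2, which differed 17.7-fold between the libraries labeled KO and held no match. Each is written 5′ to 3′ up to the base before the start site of its first window, with motif matches in capitals (TTCCTC is GAGGAA read on the other strand).
Trem2, chr17:48346151-48346400, plus strand: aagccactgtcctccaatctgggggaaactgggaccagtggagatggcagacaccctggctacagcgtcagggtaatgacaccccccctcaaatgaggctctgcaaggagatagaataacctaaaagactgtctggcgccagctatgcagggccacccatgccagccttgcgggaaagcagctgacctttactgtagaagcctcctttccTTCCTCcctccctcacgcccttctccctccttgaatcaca
Mrc1, chr2:14229164-14229413, plus strand: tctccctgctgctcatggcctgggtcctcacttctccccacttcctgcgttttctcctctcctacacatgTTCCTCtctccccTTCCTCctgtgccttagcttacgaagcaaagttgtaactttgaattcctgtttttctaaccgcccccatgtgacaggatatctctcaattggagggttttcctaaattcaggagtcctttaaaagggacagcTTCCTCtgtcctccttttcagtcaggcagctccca
Folr2, chr7:101857191-101857440, minus strand: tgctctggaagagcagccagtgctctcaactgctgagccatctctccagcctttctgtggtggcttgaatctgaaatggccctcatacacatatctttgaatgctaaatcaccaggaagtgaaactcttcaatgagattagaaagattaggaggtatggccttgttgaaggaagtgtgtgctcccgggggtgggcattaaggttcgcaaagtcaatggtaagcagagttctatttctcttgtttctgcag
In Trem2 the match begins 40 bases before the start site, and in Mrc1 the matches begin 180, 167 and 35 bases before it. These are matches of letters, and binding was not measured.

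Levels were compared between genes as RPKM, that is CPM per kilobase of the summed exons of all annotated transcripts. Apoe led in every library, with 1592, 1793, 883 and 1650.4 RPKM in WT 1, WT 2, KO 1 and KO 2, and its range did not overlap that of Spp1, the next marker. Spp1 (geometric mean 476 RPKM) in turn stood clear of Folr2. Folr2 (74.9 RPKM) and Gpnmb (70.3 RPKM) followed, with ranges that overlapped. Gpnmb stood clear of Mrc1 (29.5 RPKM) in all 4 libraries. Mrc1, Chil3 (29.3 RPKM) and Trem2 (28.8 RPKM) could not be ordered, since each pair of neighbors changed places in 2 libraries. Nos2 (15.6 RPKM) varied most, with an SD of 2.09 in log2 RPKM over the 4 libraries, and Cd163 (1.08 RPKM) was last in all of them.

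The order of levels in KO 1 differed from that in the other libraries. In KO 1, Chil3 had rank 3 of the 9 by RPKM and Folr2 had rank 6, while in the other 3 libraries Folr2 had rank 3 and Chil3 ranks of 6 to 8. Together the markers took 0.594% and 0.538% of gene counts in the WT pair and 0.324% and 0.647% in the KO pair, with exact Clopper-Pearson 95% intervals of 0.586 to 0.601, 0.531 to 0.545, 0.318 to 0.329 and 0.640 to 0.653. These intervals cover counting error only. KO 1 held the least and KO 2 the most.

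The spread between libraries of the same label was then set beside that of all genes. The median absolute log2 difference between WT 1 and WT 2 was 0.69 over the markers and 0.46 over all genes tested. Between KO 1 and KO 2 it was 1.02 over the markers and 0.69 over all genes tested, or 0.63 over the 6008 genes with a mean of at least 100 counts. Only 0.0676% of all genes tested had a larger gap between KO 1 and KO 2 than Nos2, and 0.211% had a larger gap than Folr2. For Cd163 this share was 2.31%. Mrc1 was at the other end, since 97.2% of genes had a larger gap. Between WT 1 and WT 2 the widest gap was that of Gpnmb, 3.14-fold, exceeded by 6.66% of genes.

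KO 2 exceeded KO 1 in CPM for 8 of the 9 markers, beside 42.8% of all genes tested. Fewer markers did so per macrophage count, as given below. CPM was lowest in KO 1 for 4 markers (Nos2, Trem2, Apoe and Folr2), beside 21.6% of all genes tested, and highest in KO 2 for 5 markers (Mrc1, Nos2, Spp1, Cd163 and Folr2), beside 28.0%. Both held for 2 markers, Nos2 and Folr2, beside 9.61%. With TMM scaling the counts lowest in KO 1 and highest in KO 2 were 5 and 3. The matching shares over all genes were not computed on that scale, so these counts have no comparison. KO 1 was also the library with the largest shares of T cell, melanoma and fibroblast markers, at 0.252%, 0.239% and 0.147% of gene counts, beside 0.132%, 0.132% and 0.0203% in KO 2. The part of those shares in the gap was not tested.

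**Figure D4:**
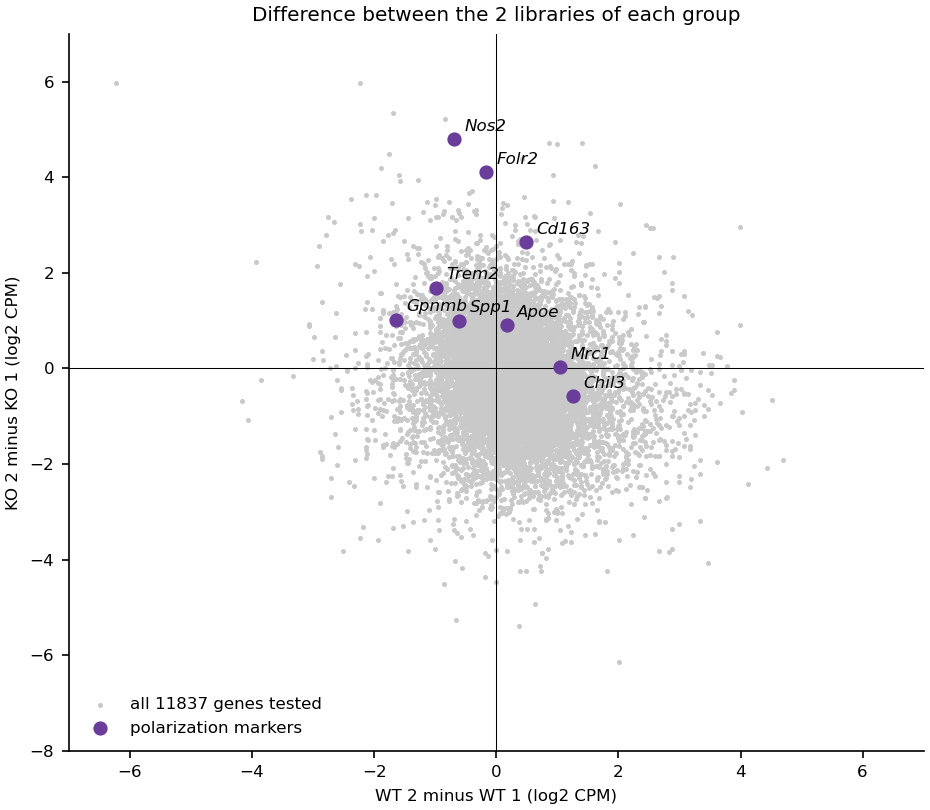
Log2 CPM of WT 2 minus WT 1 (horizontal) against KO 2 minus KO 1 (vertical) for all 11837 genes tested (grey) and the 9 polarization markers (purple). Nos2 at 4.79 and Folr2 at 4.10 lie near the upper edge of the cloud, whereas Mrc1 at 0.03 and Chil3 at -0.58 lie close to the horizontal axis.

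The macrophage identity genes were, like 4 of the markers, mostly lowest in KO 1. Of 13 genes on that list 13 were tested, 0 passed the threshold, 12 of the log2 fold changes were below 0, and CPM was lowest in KO 1 for 11. The largest values were those of Cx3cr1, a chemokine receptor, at -1.88 (edgeR adjusted p = 0.309), and C1qa, a complement subunit, at -1.75 (edgeR adjusted p = 0.288). Cx3cr1 and Lyz2 were lowest in WT 1 instead. Lyz2, lysozyme, which monocytes also express, was the single gene with a fold change above 0, with 7310 and 13499 CPM against 15135 and 10941 and a log2 fold change of 0.01. To describe the markers per amount of macrophage RNA, their counts were divided by the counts on this list in the same library.

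Per 1000 macrophage identity counts, Nos2 had 4.78 and 2.13 under the WT label and 0.426 and 10.3 under the KO label. Folr2 had 8.37 and 5.39 against 0.735 and 10.8. The gap between KO 1 and KO 2 in these genes was thus still present on this scale, at 4.59 and 3.88 in log2. Apoe became nearly level, with 129.9 and 106 against 90.0 and 140.4. Trem2, with 14.6 and 5.31 against 1.98 and 5.35, no longer separated the groups, because KO 2 exceeded WT 2 by a small margin.

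Markers that did not overlap between the groups per macrophage count were 4 of 9 (Mrc1, Spp1, Cd163 and Chil3), beside 56.6% of all genes tested on the same scale. All 4 were higher in the libraries labeled KO, as were 53.7% of all genes tested, while 2.83% were lower without overlap, so most genes without overlap were higher on this scale. Mrc1 had 4.07 and 6.06 against 10.8 and 9.27, and Spp1 had 30.1 and 14.2 against 32.5 and 54.3. In the edgeR fit that used this list as library size 0 of the 9 markers passed the threshold, beside 881 of all genes. Without C1qa, C1qb, C1qc and Lyz2, which hold most of the list's counts, 9 genes were left on the list. Per count on that shorter list the markers without overlap were 5, namely Mrc1, Spp1, Cd163 and Apoe, higher in the libraries labeled KO, and Trem2, lower at 19.6 and 29.0 against 64.0 and 37.8. Of all genes tested 59.7% did not overlap on this scale, 58.5% higher and 1.14% lower, and the list's share of gene counts was itself smaller in both libraries labeled KO. Chil3 then overlapped, at 3.96 and 11.2 against 35.9 and 11.0. KO 2 exceeded KO 1 for 7 of the 9 markers per count on all 13 genes, but for 4 of them per count on the shorter list. On the shorter list the gaps of Nos2 and Folr2 were 3.73 and 3.01 in log2. Whether the groups overlapped for Trem2, Apoe and Chil3 per macrophage count therefore depended on which macrophage genes were used.

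**Figure D5:**
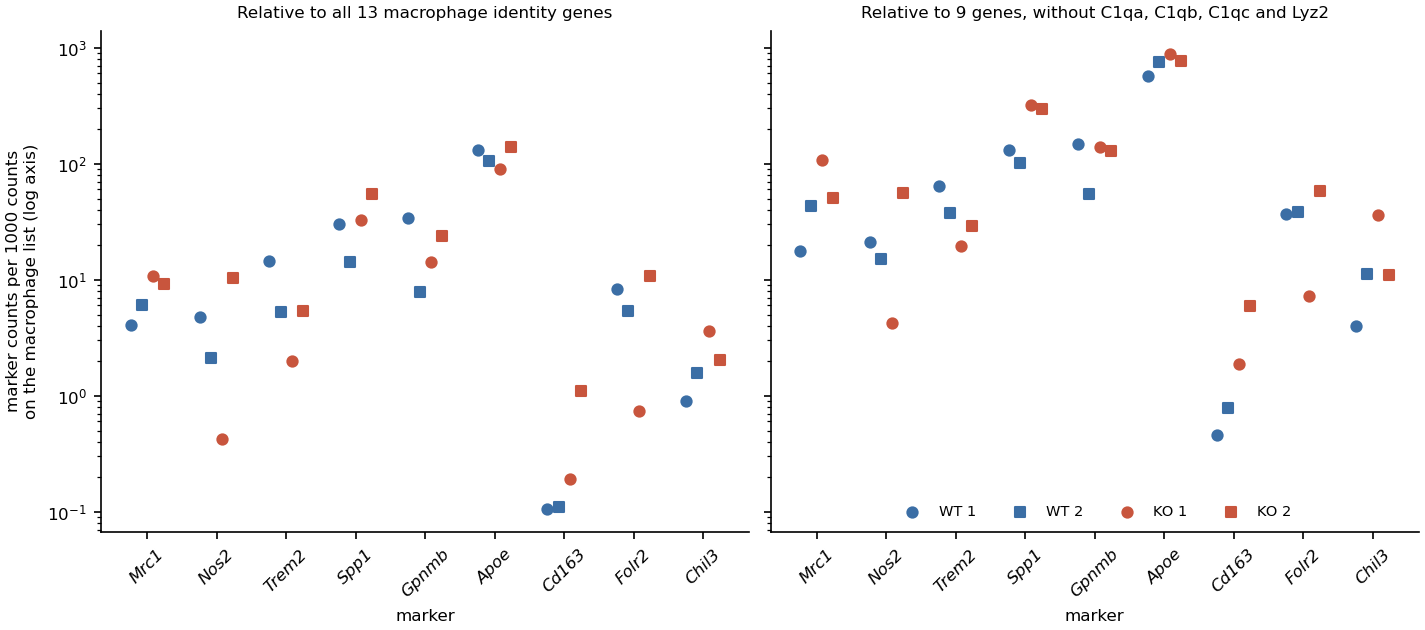
Counts of each polarization marker per 1000 counts on the macrophage identity list (log axis), with all 13 genes of the list (left) and with 9 of them (right), in the libraries labeled WT (blue) and KO (red), circles for library 1 and squares for library 2. Nos2 and Folr2 in KO 1 stay below the other 3 libraries in both panels, and Trem2 separates the groups in the right panel alone.

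The markers did not share 1 pattern over the 4 libraries. By the Euclidean distance between log2 CPM centered on each gene's mean, the closest pair of markers was Mrc1 and Chil3 at 0.49, followed by Nos2 and Folr2 at 0.89. Each marker was also compared with all other tested genes that had a mean of at least 20 counts. The genes nearest to Mrc1 were Fyb (0.07) and Adk (0.08), to Chil3 Itgav (0.06) and Arvcf (0.09), to Apoe Ncf1 (0.07) and Dhrs1 (0.07), and to Spp1 Gab1 (0.03) and C130013H08Rik (0.11). Nos2 had no close neighbor, with Padi4 at 0.72 and Folr2 at 0.89. Those of Folr2 were Ceacam19 at 0.41 and Gm10602 at 0.51, and those of Cd163 were 6230400D17Rik at 0.23 and Slc2a3 at 0.51. Gm10602 shares exonic bases with Folr2, so reads of these genes cannot be told apart, as stated above. Trem2 was nearest to Snx29 (0.17) and Epb41l1 (0.24), and Gpnmb to Gm13554 (0.18) and A930007I19Rik (0.19). With 4 libraries these distances are descriptions.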

How the data were processed

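RNA from sorted tumor cells was measured in 4 libraries, 2 labeled WT and 2 labeled KO. The authors deposited raw read counts per gene symbol, 1 table per library, made, per the submitters' processing notes, with HISAT2 2.1.0, HTSeq 0.11.0 and mm10; the annotation and strand setting are not given in the sources used here. Rows naming no gene, 71.2% to 79.5% of reads, were left out. All 9 markers matched GENCODE M21 (GRCm38), which gave positions and lengths. In R 4.3.3, genes passing filterByExpr (minimum count 10, total 15) were kept, scaled by TMM factors and tested with edgeR 4.0.16 (glmQLFit, glmQLFTest, group only, two-sided, prior count 0.125). SE is the absolute log2 fold change over the square root of F. Between-group testing used all 4 libraries. DESeq2 1.42.0 was an alternative. The code was tested on simulated data. Plots used matplotlib 3.10.9.

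The markers and lists were chosen with earlier results of these data known. Some of the genes and motifs chosen are not reported here. Named were all 9 markers; on each other list up to 5 genes past the threshold and the 2 largest absolute fold changes; and the 2 nearest genes of each marker. Lyz2, Ly6c2, Gm10602 and Gm42793 were added after their values were seen, as were Chil1 and Retnla and the chitinase family. Satb1, Xist and the Y-linked genes also fall outside this rule.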

Additional observations from a re-analysis of the deposited data

How the results depend on the processing

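The 15 alternatives gave 134 values for the markers, of which 118 kept both direction and side of the threshold, 11 changed sign and 5 kept the sign and passed. Under the other scaling factors, the library size from the macrophage identity list, either filter, DESeq2, prior count 2 and removal of mitochondrial and ribosomal protein genes no marker changed sign. The median log2 fold change of all genes, 0.05, became 0.38 without scaling factors and 0.83 with the macrophage list as library size, and that of the markers, 0.11, became 0.40 and 0.64. The marker median was also -0.29 with at least 50 counts in 2 libraries, -0.59 with either block described below, and -1.38 to 0.11 with 1 library left out, so its sign was not stable. The number of genes past the threshold, 68, became 136 (133 higher, 3 lower) without scaling factors, 881 (874 higher, 7 lower) with the macrophage identity list as library size, 583 (505 higher, 78 lower) with no filter, 117 with at least 50 counts in 2 libraries (which left Cd163 out) and 416 (350 higher, 66 lower) in DESeq2, and ranged from 113 to 1249 with 1 library left out. The number of markers past it, 0, became 1 with no filter and 1 in DESeq2, both Trem2, and ranged from 0 to 3 with 1 library left out, the 3 being Nos2, Trem2 and Folr2 without KO 2, where 1249 of 12852 genes (9.72%) were past it, 725 higher and 524 lower. Where a library is left out, the lone sample of its group is assumed to vary like the others. The cause of these changes was not tested.

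With 1 library left out, log2 fold changes ranged from -0.22 to 0.63 for Mrc1 (below 0 without WT 1), from -3.96 to 1.06 for Nos2 (below 0 without WT 2 or KO 2), from -0.4 to 0.77 for Spp1 (below 0 without WT 2 or KO 2), from -1.48 to 0.41 for Gpnmb (above 0 without WT 1), from -0.17 to 2.75 for Cd163 (below 0 without KO 2), from -4.2 to 0.11 for Folr2 (above 0 without KO 1) and from -0.16 to 0.92 for Chil3 (below 0 without WT 1). Trem2 and Apoe stayed below 0 in all 15. Per macrophage count the median of the markers' own log2 differences was 0.18 with all 13 identity genes and 0.56 with 9 of them. The marker median taken in each library, which falls on different genes, differed between the groups by -0.14 and by -0.89 to 0.61 with 1 library left out, so it gave no stable direction.

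The labels do not say that the numbers 1 and 2 pair the libraries. A replicate block gave 215 genes (1.82% of those tested) and 0 markers. Nos2 was at -1.29 with this block, and Folr2 at -1.97 beside -0.81 without it. Over 10435 genes WT 2 minus WT 1 and KO 2 minus KO 1 had a correlation of -0.213. A crossed replicate block, chosen after seeing the data, gave 647 genes (5.47% of those tested) and 1 marker. That marker was Trem2, at -2.19 (edgeR adjusted p = 0.00347), while Nos2, at -1.27, was not past the threshold. With 3 counts worth up to 0.747 CPM, Cd163 was the single marker near the limit of depth.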

Other observations

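Chil1, a chitinase-like gene related to Chil3, had 323 counts in WT 2 and 0 counts in the other 3 libraries, and was not tested because it was counted in 1 library. Retnla, which interleukin-4 induces together with Chil3, had 320.1 and 826 CPM in the libraries labeled WT and 875 and 272 CPM in those labeled KO. It was high in WT 2 and KO 1 and low in WT 1 and KO 2. Both genes were picked after their values were seen.

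Of lists of other cells, 9 of 10 T cell identity genes tested, 1 of 8 melanoma genes tested, 3 of 5 fibroblast or endothelium genes tested and 1 of 6 dendritic cell genes tested rose in the libraries labeled KO (edgeR adjusted p under 0.05), beside 0.549% of all genes tested. The T cell genes of smallest p were Cd8a, Lck, Cd3e, Cd3d and Trbc2, with log2 fold changes of 4.34, 4.89, 3.65, 3.53 and 4.89. Those past the threshold on the other lists were Tyrp1 at 3.21, Col3a1 at 8.47, Col1a1 at 6.46, Col1a2 at 5.16 and Ccr7 at 5.15. Not past it were Tyr at 3.35 (edgeR adjusted p = 0.118), Fscn1 at 3.33, and Dcn, with 0 and 0 against 538 and 27 counts (edgeR adjusted p = 0.0822). Cd79b was at -2.07, Csf3r at -0.97 and Mmp8 at 0.19 (edgeR adjusted p = 0.300, 0.399 and 0.953). The neutrophil, B cell and NK cell lists had 0 genes past the threshold and held at most 0.0156%, 0.00427% and 0.000134% of gene counts in any library.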
